A study of Mus musculus with 7 samples.

Results

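The MEF2 transcription factors, the class IIa histone deacetylases and the salt-inducible kinases were examined in osteocyte-enriched long bone of mice. The 10 genes (Mef2a, Mef2c, Mef2d, Hdac4, Hdac5, Hdac7, Hdac9, Sik1, Sik2 and Sik3) were chosen by name for their place in 1 pathway, with earlier results of these arrays known. They are 10 of the 19938 genes that a single-gene probe set names on the array, and all 10 were among the 13938 genes with enough signal to be tested. Each was read from its probe set with the highest mean.

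The knockout group (3 arrays) came from male mice aged 39 to 41 weeks that lacked Mbtps1 through a DMP1 cre line, and the control group (4 arrays) from male littermates of the same age labelled wildtype. Mbtps1 encodes site-1 protease, a Golgi enzyme that releases membrane-bound transcription factors. Dmp1-Cre is active mainly in osteocytes and late osteoblasts, whereas the RNA came from bone pieces that, after removal of marrow and rounds of collagenase and EDTA, still held other cells. Values are deposited probe set intensities on a linear scale, and fold changes are differences of log2(intensity + 16), knockout minus control, with the standard error (SE) from limma.

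MEF2 proteins bind DNA as dimers and switch on genes in muscle, bone, vessels, neurons and lymphocytes. In osteocytes Mef2c is known to drive Sost, the gene of the Wnt inhibitor sclerostin, through a distant enhancer. Class IIa deacetylases bind MEF2 proteins in the nucleus and repress their targets. Salt-inducible kinases phosphorylate these deacetylases and the CRTC coactivators of CREB, which keeps them in the cytoplasm, and parathyroid hormone acting through cAMP inhibits the kinases.

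Promoter sequence from RefSeq (GRCm38.p6) was available for 9 of the 10 genes, in 15 windows of 300 bases (250 before and 50 after a transcript start). Sik1 had none. The MEF2 site was searched in a loose form, CTANNNNTAG, where N is any base. This pattern reads the same on both strands and so was searched once for both, and it is in 3.69% of all 32851 windows. It was found in 3 of the 15 windows, of Mef2a, Hdac9 and Hdac5, and in none of the 3 windows of Mef2c. These 4 windows are shown because Mef2a, Mef2c and Hdac9 are the members with lower signal in knockout bone, whereas Hdac5, which also holds a match, did not have lower signal. Capitals mark the match, and each sequence is written 5′ to 3′ on the gene's strand.
Mef2a, chr7:67372809-67373108, minus strand: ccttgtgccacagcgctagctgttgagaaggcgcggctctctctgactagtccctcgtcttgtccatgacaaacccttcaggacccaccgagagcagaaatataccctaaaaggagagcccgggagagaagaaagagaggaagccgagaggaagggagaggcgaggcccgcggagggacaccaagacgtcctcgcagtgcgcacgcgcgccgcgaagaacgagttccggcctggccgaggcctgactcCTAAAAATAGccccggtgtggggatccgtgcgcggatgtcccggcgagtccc
Hdac9, chr12:34528840-34529139, minus strand: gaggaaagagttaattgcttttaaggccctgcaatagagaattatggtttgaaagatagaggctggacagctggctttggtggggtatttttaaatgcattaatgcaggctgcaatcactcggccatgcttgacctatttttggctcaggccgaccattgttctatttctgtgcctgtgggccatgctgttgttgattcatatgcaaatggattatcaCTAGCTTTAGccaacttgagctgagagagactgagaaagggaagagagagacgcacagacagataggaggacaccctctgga
Hdac5, chr11:102230123-102230422, minus strand: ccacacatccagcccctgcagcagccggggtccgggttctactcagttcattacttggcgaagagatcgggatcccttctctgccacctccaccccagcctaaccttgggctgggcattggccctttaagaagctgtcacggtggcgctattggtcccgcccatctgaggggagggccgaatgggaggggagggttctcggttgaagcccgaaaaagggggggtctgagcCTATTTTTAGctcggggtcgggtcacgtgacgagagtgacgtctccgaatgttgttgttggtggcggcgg
Mef2c, chr13:83503784-83504083, plus strand: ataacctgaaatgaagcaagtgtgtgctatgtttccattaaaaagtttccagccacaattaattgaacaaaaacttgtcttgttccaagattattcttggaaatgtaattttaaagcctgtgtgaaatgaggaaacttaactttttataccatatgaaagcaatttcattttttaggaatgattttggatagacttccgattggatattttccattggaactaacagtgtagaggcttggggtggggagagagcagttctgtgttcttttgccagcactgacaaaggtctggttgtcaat
The match CTAAAAATAG in the Mef2a window begins 2 bases before the annotated start. CTATTTTTAG begins 20 bases before the Hdac5 start, and CTAGCTTTAG begins 32 bases before the Hdac9 start. In the Hdac9 match the middle bases include G and C, whereas in the Mef2a and Hdac5 matches they are only A or only T. The other Hdac9 window, of another start, has no match. The CREB element TGACGTCA, searched on both strands, is in none of the 15 windows and in 1.79% of all windows. Its shorter core TGACG, which the full element contains, is in 4 of the 15 (Hdac4, Hdac5, Sik2 and Sik3) and in 20.8% of all windows. A match describes these letters in this window.

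The arrays differed among themselves. Median intensity lay between 87.3 (control 3) and 107.7 (control 4), and control 4 stands apart in several members, so results are also given without it. The deleted gene read 131 to 162 in controls and 115, 107 and 154 in knockouts 1 to 3 (Mbtps1 log2 fold change -0.23, limma adjusted p = 0.807), so its probe set does not check the genotype labels. All 9 osteocyte markers (Dmp1, Phex, Mepe, Dkk1, Irx5, Ptprz1, Fgf23, Pdpn and Gja1) had signal above the filter of 69.7 for mean intensity. Nothing in the labels says which mice shared a litter, and p-values measure the spread between these arrays.

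Mef2a, Mef2c and Hdac9 read lower in every knockout than in any control, at 64.2% (Mef2a), 67.0% (Mef2c) and 71.7% (Hdac9) of the control level by the fitted fold change, and none of the 10 genes passed over all genes. By the looser rule of an unadjusted limma p under 0.05 (6.49% of all genes), 3 members were lower and 0 higher. Of all genes tested, 2.71% were lower and 3.77% higher by that rule, and 0% passed the adjusted threshold. The groups did not overlap in 4 members (7.99% of all genes), of which 3 were lower (2.76% of all genes) and 1, Hdac7, was higher (5.22% of all genes). The median log2 fold change of the 10 genes was 0.09, beside 0.07 over all genes, and 3 of the 10 were below 0 beside 32.3% of all genes.

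**Figure D1:**
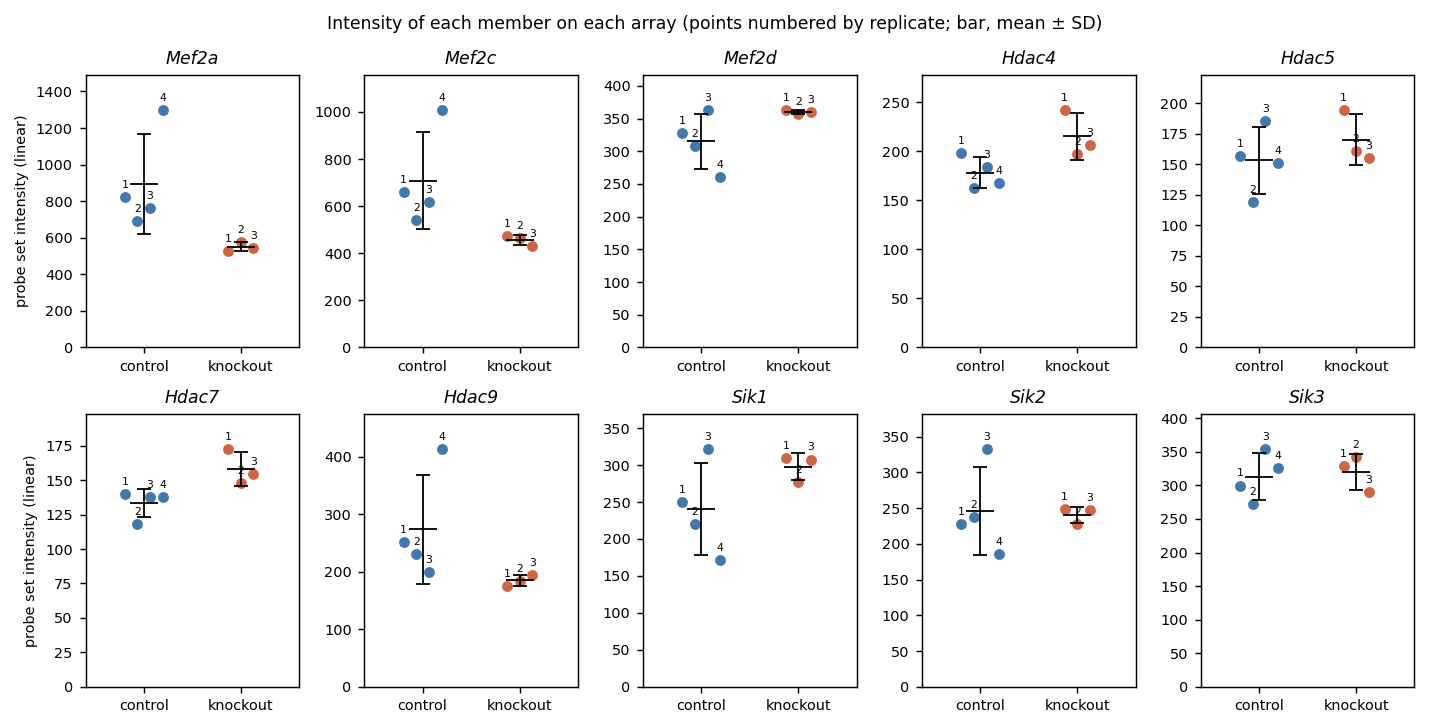
Probe set intensity (linear scale, axis from 0) of the 10 genes on each of 4 control and 3 knockout arrays; points carry the replicate number and bars are mean ± SD. In Mef2a, Mef2c and Hdac9 the knockouts lie under all controls and control 4 is far above the other controls, whereas in Hdac7 the knockouts lie above all controls.

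Among the MEF2 factors, Mef2a and Mef2c had lower signal in knockout bone and Mef2d did not. Mef2a read 822, 691, 761 and 1298 in controls 1 to 4 and 529, 577 and 545 in knockouts 1 to 3. The knockouts lay close together, and control 4 was 1.71 times the mean of the other controls. The means were 893 ± 275 (SD, n = 4) and 551 ± 24.4 (SD, n = 3), and the log2 fold change was -0.64 (SE 0.19, limma adjusted p = 0.638). Over the alternatives run the adjusted p lay between 0.112 and 0.9999. The two-sided exact permutation p was 0.0571, where the 35 splits of the arrays can give no p below 0.0286. Without control 4 the log2 fold change was -0.45 (SE 0.11, adjusted p = 0.131).

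Mef2c, a family member known to act on Sost, read 659, 543, 619 and 1008 in controls 1 to 4 and 472, 464 and 432 in knockouts 1 to 3. Control 4 was again the highest array, and the lowest control, control 2, was above the highest knockout by a margin smaller than the control range. The means were 707 ± 206 (SD, n = 4) and 456 ± 20.9 (SD, n = 3), a log2 fold change of -0.58 (SE 0.19, limma adjusted p = 0.638, between 0.158 and 0.9999 over the alternatives). With each array left out it ranged from -0.69 to -0.40, the value nearest 0 being that without control 4. The exact permutation p was 0.0571.

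Mef2d read 328, 308, 363 and 261 in controls 1 to 4 and 363, 357 and 360 in knockouts 1 to 3. Here control 4 was the lowest array, control 3 was level with knockout 1, and the groups overlapped. The log2 fold change was 0.19 (SE 0.14, limma adjusted p = 0.831), and 0.11 without control 4. The 95% interval of 0.925 to 1.41-fold does not reach the lower level seen in Mef2a or Mef2c. A second Mef2d probe set gave 0.03 (SE 0.13). No single-gene probe set names Mef2b, the remaining family member.

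To ask whether the family members differed from one another, the log2 ratio of 2 of them was taken within each array on log2(intensity + 16). The ratio of Mef2a to Mef2d was 1.04 to 2.25 in controls and 0.53 to 0.67 in knockouts, and that of Mef2c to Mef2d was 0.75 to 1.88 and 0.25 to 0.36. In both the groups did not overlap. The ratios differed by -0.83 and -0.77, or by -0.56 and -0.51 without control 4. The two-sided exact permutation p was 0.0571 for each and 0.0714 after Benjamini-Hochberg adjustment over 5 ratios, so neither passed. The ratios were chosen after the single values had been seen.

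**Figure D2:**
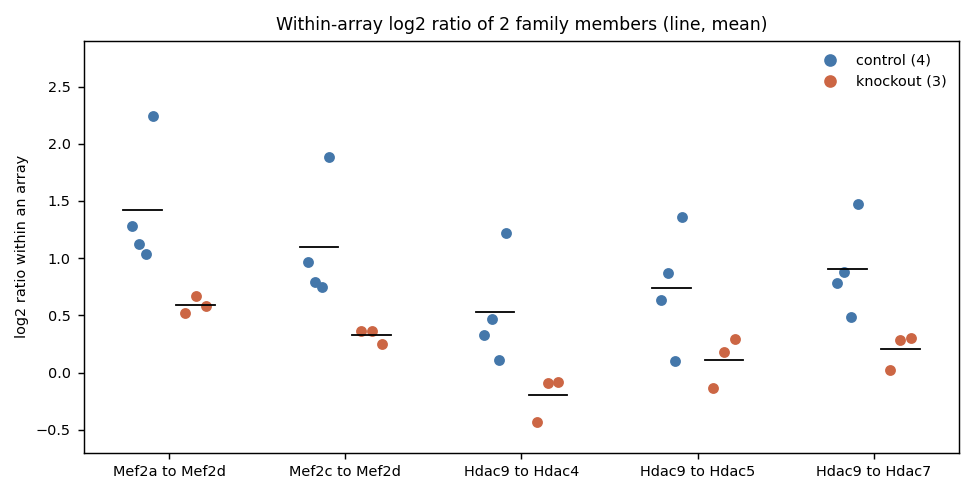
Within-array log2 ratio of 2 members for 5 gene pairs; points are arrays (4 control, 3 knockout) and lines are group means. The groups do not overlap in 4 of the 5 ratios, and in Hdac9 to Hdac5 control 3 (0.10) lies among the knockouts.

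Among the class IIa deacetylases, Hdac9 read lower in knockout bone, whereas Hdac4, Hdac5 and Hdac7 had log2 fold changes above 0. Hdac9, whose main short product lacks the catalytic domain and still binds MEF2, read 252, 231, 200 and 413 in controls 1 to 4 and 176, 184 and 194 in knockouts 1 to 3. Control 3 and knockout 3 were nearly level, so the gap between the groups was narrow, and control 4 was 1.81 times the mean of the other controls. The means were 274 ± 94.8 (SD, n = 4) and 185 ± 9.37 (SD, n = 3), a log2 fold change of -0.48 (SE 0.20, limma adjusted p = 0.755, between 0.217 and 0.9999 over the alternatives). Without control 4 it was -0.28 (SE 0.11). The two-sided exact permutation p was 0.0571. The unadjusted limma p of Hdac9, 0.0316 with all arrays, was 0.0877 without knockout 1, 0.0679 without knockout 2, 0.0502 without knockout 3 and 0.0687 after quantile normalization, and after the last the groups overlapped.

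Hdac4, a deacetylase known for restraining chondrocyte hypertrophy and for holding MEF2C in osteocytes, read 198, 163, 183 and 168 in controls 1 to 4 and 242, 197 and 207 in knockouts 1 to 3. Only control 1 lay above a knockout, knockout 2. The log2 fold change was 0.25 (SE 0.13, limma adjusted p = 0.789, exact permutation p = 0.0857). A second Hdac4 probe set read 164, 163, 147 and 172 in controls and 194, 183 and 188 in knockouts. There every knockout was above every control, with a log2 fold change of 0.20 (SE 0.11, adjusted p = 0.808).

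Hdac5, which with Hdac4 is known to restrain Sost in osteocytes, read 156, 120, 186 and 151 in controls 1 to 4 and 194, 161 and 155 in knockouts 1 to 3. The groups overlapped over most of their range. The log2 fold change was 0.15 (SE 0.15, limma adjusted p = 0.865), and it was 0.05 without control 2, 0.06 without knockout 1 and 0.24 without control 3. Its 95% interval ran from 0.888 to 1.38-fold.

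Hdac7, known for its part in endothelial cells and thymocytes, read 140, 118, 138 and 138 in controls 1 to 4 and 172, 148 and 154 in knockouts 1 to 3. Every knockout was above every control. The log2 fold change was 0.22 (SE 0.12, limma adjusted p = 0.803), and the two-sided exact permutation p was 0.0286, the smallest that the 35 splits can give. It ranged from 0.16 to 0.26 with each array left out. The summed intensity of 10 endothelial markers lay between 1899 and 2266 in controls and between 1830 and 1958 in knockouts. By the unadjusted rule 2 of the 10 were lower, beside 2.71% of all genes, and 0 higher. For 8 T and NK cell markers the sum lay between 1091 and 1573 in controls and between 1589 and 1624 in knockouts. This T and NK cell sum was higher in every knockout than in any control, as Hdac7 was. Controls 2 and 3 (1573 and 1563) lay close under the lowest knockout (1589), however. By the unadjusted rule 0 of the 8 T and NK cell markers were lower and 0 higher. None of these markers was at 0, and their part in the Hdac7 values was not tested.

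Within arrays, the log2 ratio of Hdac9 to Hdac4 differed by -0.73 between the groups, that of Hdac9 to Hdac7 by -0.70 and that of Hdac9 to Hdac5 by -0.63. The first was 0.11 to 1.22 in controls and -0.43 to -0.08 in knockouts, and the second 0.49 to 1.48 and 0.03 to 0.31. The exact permutation p was 0.0571 for both (adjusted 0.0714) and 0.143 for Hdac9 to Hdac5. Without control 4 these differences were -0.50, -0.51 and -0.42, in the order Hdac4, Hdac7, Hdac5. None passed.

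**Figure D3:**
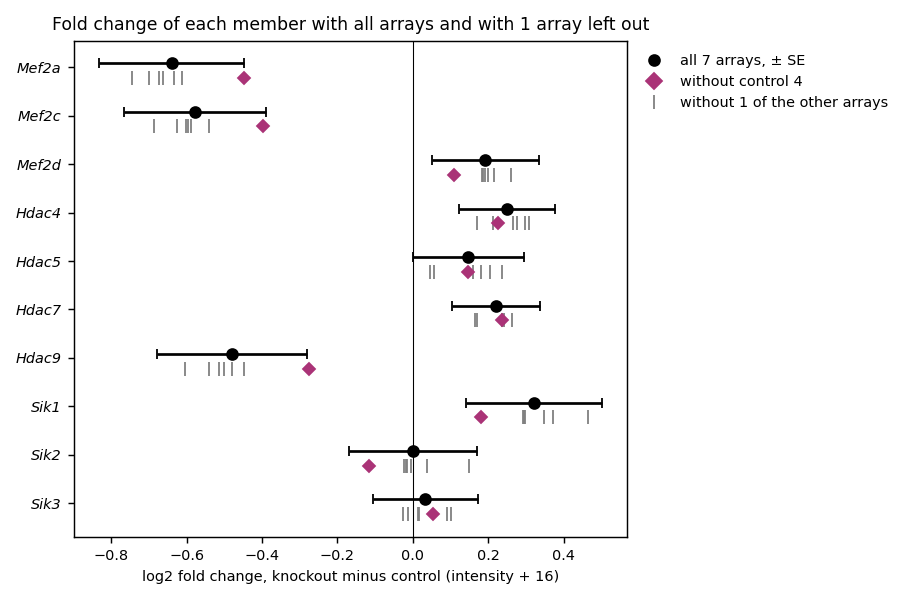
Log2 fold change (knockout minus control) of each gene with all 7 arrays (black, ± SE), without control 4 (diamond) and without each other array (ticks). Mef2a, Mef2c and Hdac9 stay below 0 and nearest to it without control 4, and Sik2 and Sik3 lie on both sides of 0.

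The salt-inducible kinases did not read lower in knockout bone. Sik1, which CREB itself induces after cAMP signals, read 250, 220, 321 and 171 in controls 1 to 4 and 309, 277 and 308 in knockouts 1 to 3. Control 3 was above every knockout and the other controls were below, with control 4 the lowest. The log2 fold change was 0.32 (SE 0.18, limma adjusted p = 0.804, exact permutation p = 0.200). It was 0.46 without control 3, where the groups no longer overlapped and the unadjusted p was under 0.05, and 0.18 without control 4.

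Sik2, a kinase known to phosphorylate HDAC4, HDAC5 and CRTC2 in osteocytes, read 228, 237, 332 and 185 in controls 1 to 4 and 248, 228 and 247 in knockouts 1 to 3. The knockouts lay inside the control range, with a log2 fold change of 0.0014 (SE 0.17, limma adjusted p = 0.999). Sik3, known for its part in chondrocyte hypertrophy, read 300, 273, 354 and 326 in controls and 328, 343 and 290 in knockouts, also within the control range (0.03, SE 0.14, adjusted p = 0.976). The 95% intervals were 0.775 to 1.29-fold for Sik2 and 0.831 to 1.26-fold for Sik3, so a change inside these limits is not excluded.

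Sik1 and Mef2d varied together over the 7 arrays (Pearson r = 0.98, exact permutation p = 3.97e-04, 0.0179 adjusted over 45 pairs of members). Spearman's rho was 0.96 (exact permutation p = 0.00278, adjusted 0.101). Without controls 2 and 4, the arrays farthest from the Mef2d median, r was 0.91. Both genes were highest or nearly so in control 3 and lowest in control 4, the arrays with the lowest and the highest median intensity. The relation does not separate the genotypes, and the part of array scaling in it was not tested. Mef2a and Mef2c were the other pair past the threshold (r = 0.99, exact permutation p = 7.94e-04, adjusted 0.0179). Their Spearman's rho was 0.89 (exact permutation p = 0.0123, adjusted 0.138), and r was 0.998 without control 4 and knockout 1. Both read lower in every knockout than in any control, so this r includes the difference between the groups. Their relation within a group was not tested.

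Mef2a, Mef2c and Hdac9 had control 4 as the highest array, control 1 next and the knockouts lowest, and so did the mean of the osteocyte markers. The order of the remaining arrays differed among them. The mean log2 signal of the 9 osteocyte markers was 8.69, 8.39, 8.44 and 9.51 in controls 1 to 4 and 7.69, 8.10 and 7.90 in knockouts 1 to 3. The summed intensity of these markers was 4116 to 10077 in controls and 2204 to 3141 in knockouts, none was at 0, and 7 of the 9 were lower at an unadjusted p under 0.05, beside 2.71% of all genes. The other two were Fgf23 (0.25, and 0.34 without control 4, where it was higher by the unadjusted rule) and Pdpn (-0.08, and 0.18 without control 4), named after their values were seen. Of 7 measured osteoblast markers (9 listed), 3 were lower by the same rule and 0 higher. The marker lists were chosen with earlier results of these arrays known, so these counts are not independent evidence. In bulk bone, fewer osteocytes and less RNA per osteocyte cannot be told apart, and the part of osteocyte content in the lower Mef2a, Mef2c and Hdac9 signal was not tested.

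Skeletal muscle and B cells also express MEF2 factors, and their markers were read beside the members. Of 11 skeletal muscle genes, which MEF2 factors are known to drive, 8 had signal above the filter, and 0 were called by the unadjusted rule in either direction. The summed intensity of all 11 muscle genes, those under the filter included, was 870 to 1240 in controls and 957 to 1064 in knockouts. B cells express Mef2c, and 8 of 9 B cell markers were measured. They summed to 1869 to 3816 in controls and 3308 to 3996 in knockouts, with control 4 the lowest array. By the unadjusted rule 2 of these markers were higher, beside 3.77% of all genes. In control 4 alone, Mef2c was at its highest and the B cell markers at their lowest. The part of B cells or muscle in the values of the members was not tested.

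**Figure D4:**
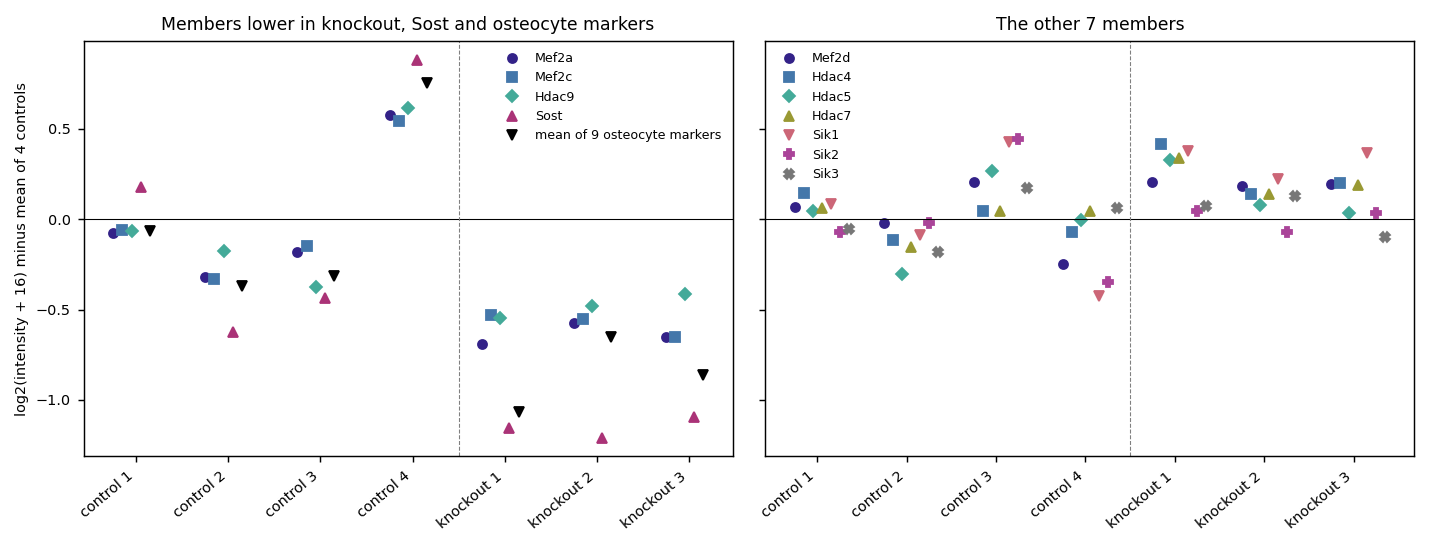
Difference of log2(intensity + 16) from the mean of the 4 controls for each array; left, Mef2a, Mef2c, Hdac9, Sost and the mean of 9 osteocyte markers, right, the other 7 members. On the left control 4 is highest and the 3 knockouts are lowest in every series; on the right control 4 is lowest in Mef2d, Sik1 and Sik2.

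Sost, a known target of Mef2c in osteocytes, read 698, 394, 451 and 1148 in controls 1 to 4 and 268, 257 and 280 in knockouts 1 to 3. The knockouts lay under every control and the controls spread widely, as in Mef2c. The log2 fold change was -1.15 (SE 0.28, limma adjusted p = 0.584), and -0.86 without control 4. Over the alternatives the adjusted p lay between 0.00624 (replicate block, although the labels do not say that the numbers pair mice) and 0.9999.

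Of the 11 measured MEF2 target genes (13 listed), 6 were lower (2.71% of all genes) and 1 higher (3.77%) by the unadjusted rule. None passed over all genes. The median log2 fold change was -0.49, beside 0.07 over all genes, and -0.38 without control 4. This list was written with earlier values of Sost, Nr4a1, Klf4, Jun and Tnfsf11 from these arrays known, so its count is not independent evidence. The lower genes were Sost, Klf4 (-0.79), Jun (-0.99), the matrix metalloproteinase Mmp14 (-0.67), Klf2 (-0.49) and Nr4a1 (-0.82), where Klf2 and Nr4a1 complete the count and were named after their values were seen. Klf4, Jun and Nr4a1 are also early response genes that many stimuli induce.

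Klf2, a textbook MEF2 target in endothelium, read 834, 653, 728 and 1015 in controls 1 to 4 and 548, 574 and 564 in knockouts 1 to 3, with no overlap and control 4 again the highest. Tnfsf11, which encodes the osteoclast factor RANKL and is raised by parathyroid hormone through CRTC2, read 99.1, 92.4, 107.3 and 130.7 in controls and 140.5, 130.7 and 134 in knockouts. It was the target called higher by the unadjusted rule (0.30, limma adjusted p = 0.755), and control 4 was level with knockout 2. Mmp13 (-0.49), a collagenase that HDAC4 is known to restrain, spread from 460 to 1345 within the knockouts and did not pass, and it too was named after its values were seen.

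The partners of MEF2 factors and deacetylases and the kinases of the deacetylases were read next. Among 10 measured MEF2 and deacetylase partners of 13 listed, 0 genes were called at an unadjusted p under 0.05. Those with the smallest p were the MEF2-activating kinase gene Mapk7 (0.23), the calcineurin subunits Ppp3ca (-0.21) and Ppp3r1 (-0.16) and the p38 kinase gene Mapk14 (0.18). Among 17 of 18 kinases of class IIa deacetylases and 14-3-3 proteins, which hold the phosphorylated deacetylases in the cytoplasm, 0 genes were called either. Prkd3, a protein kinase D gene, was nearest (-0.26) with 220, 220, 257 and 211 in controls and 191, 190 and 179 in knockouts, and it passed the unadjusted rule without control 4 (-0.29). Camk2d (-0.20), a calmodulin-dependent kinase gene, read lower in every knockout than in any control, and the 14-3-3 genes Ywhag (0.19) and Ywhah (0.18) overlapped between groups. The list medians were 0.06 and 0.05, beside 0.07 over all genes, and they were -0.07 and -0.05, beside 0.03, without control 4.

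A list of genes around the salt-inducible kinases held the upstream LKB1 complex, the parathyroid hormone receptor and protein kinase A, and the downstream CRTC and CREB family genes. Of its 15 genes 13 were measured and 1 was called, lower (2.71% of all genes). It was Prkar2a, a regulatory subunit of protein kinase A, at 132, 163, 163 and 157 in controls 1 to 4 and 95.8, 121.6 and 121.3 in knockouts 1 to 3, with no overlap (-0.40, SE 0.13, limma adjusted p = 0.638). Pth1r, the parathyroid hormone receptor gene, had a log2 fold change of -0.39 with overlapping groups. The coactivator gene Crtc1 (0.21, and 0.30 without control 4, where it passed the unadjusted rule) and Strada (0.14), which activates the upstream kinase LKB1, did not pass. The list median was 0.02, and -0.07 without control 4.

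Of 11 measured CREB and CRTC target genes (12 listed), 2 were lower by the unadjusted rule (2.71% of all genes) and 0 higher (3.77%). The median log2 fold change was -0.16, beside 0.07 over all genes. This list was written with the earlier value of Fos from these arrays known, so its count is not independent evidence. The lower genes were Fos (-0.90) and the phosphatase gene Dusp1 (-0.38). Fos read 1402, 660, 1056 and 1649 in controls 1 to 4 and 485, 738 and 593 in knockouts 1 to 3. In Fos the groups overlapped through control 2. Ptgs2 (-0.43), which encodes the inducible prostaglandin synthase, and Nr4a2 (-0.40) did not pass. Without control 2 the count was 4 (748 over all genes). It was 3 without knockout 2 (716) and 3 without control 4 (1803). It was 1 without knockout 1 (325), without knockout 3 (430) and without controls 3 and 4 (1498). With all arrays 904 of all genes tested were called. Sik1, itself a CREB target, had a log2 fold change of the opposite sign (0.32).

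Histone deacetylases of other classes were read as a comparison for the class IIa genes. Of 6 listed genes 5 were measured, 0 were called, and their log2 fold changes ran from -0.04 to 0.15 (Hdac8 0.15, Hdac1 0.03, Hdac10 -0.03, Hdac6 -0.04). The median was -0.02. Hdac11 was below the filter on mean signal and so not tested, at 46.6, 64.1, 63 and 64 in controls 1 to 4 and 94.6, 70.4 and 76.3 in knockouts 1 to 3. Its groups did not overlap (mean log2 signal 6.23 in controls and 6.58 in knockouts), and with no filter 1 gene of this list was called by the unadjusted rule.

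**Figure D5:**
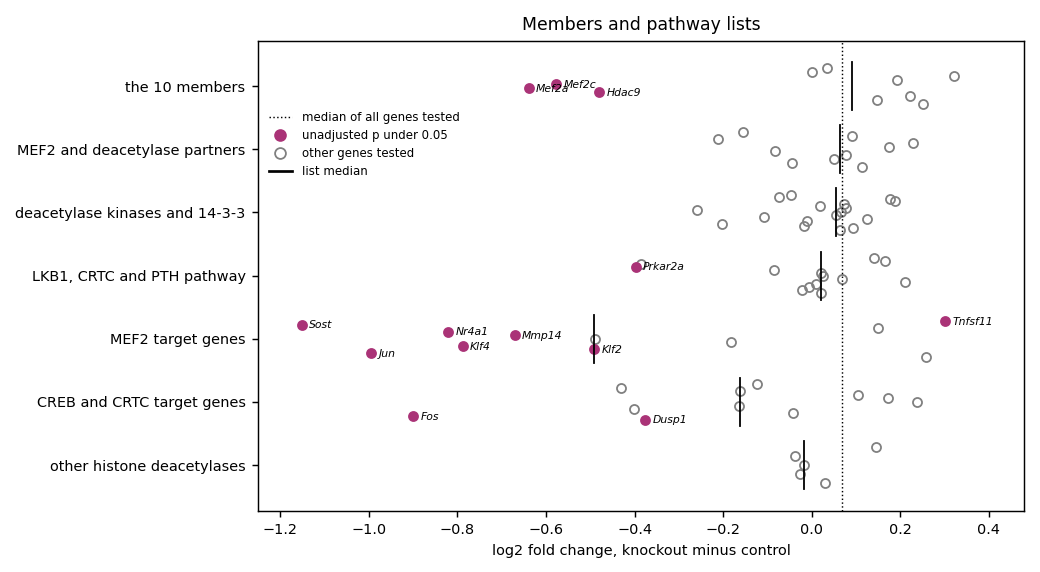
Log2 fold change (knockout minus control) of the 10 members and of the measured genes of 6 pathway lists; filled points have an unadjusted p under 0.05, solid lines are list medians and the dotted line is the median of all genes tested (0.07). The filled points are 3 of the members, 6 lower and 1 higher gene of the MEF2 target list, Prkar2a among the genes around the salt-inducible kinases, and Fos and Dusp1 among the CREB and CRTC targets.

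The genes most like a member were found by the highest Pearson correlation over the 7 arrays, on the log2 scale, among all genes tested. They are given as a description, since they are the highest of many. For Mef2a they were Pcdh7, Sema5a, Htra1, Fat1 and Insig2, with r from 0.994 to 0.999, and from 0.983 to 0.999 without control 4. These genes, of a protocadherin, a semaphorin, a secreted serine protease, an atypical cadherin and an SREBP retention protein, had log2 fold changes between -1.16 and -0.79. For Mef2c they were Insig2, Lrrc1, Sash1, Mef2a and Mbnl1, with r from 0.991 to 0.995. Mef2a was the 4th of them (r = 0.991, and 0.970 without control 4). For Sik1 they were Vkorc1l1, Poldip3, Cnot9, Mtmr3 and Mybbp1a, with r from 0.988 to 0.991 and log2 fold changes between 0.13 and 0.30, and the groups overlapped in all 5.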

How the data were processed

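Total RNA (30 ng a sample) was labelled with a NuGEN kit and hybridised to Affymetrix whole-transcript arrays, per the labels' protocols. The deposited intensity of each probe set is on a linear scale, and the authors made it with PLIER and Affymetrix Expression Console 1.4, per the submitters' processing notes. The background correction, any scaling of arrays to each other and the build are not stated in the labels used here. No gene coordinates are printed for that reason; promoter windows carry RefSeq's own build.

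Gene names came from GEO's platform annotation, and RefSeq (GRCm38.p6) symbols with the same Entrez identifier changed 0 of them. The annotation gives 1 symbol for 21789 probe sets, which were used, and several for 1621 or none for 12146, which were not. A gene entered the test if its mean log2 signal reached the 30th percentile of these probe sets (6.42, an intensity of 69.7). On log2(intensity + 16), with no further scaling, the 2 groups were fitted in limma 3.58.1 (R 4.3.3) with a mean-variance trend and no covariate. P-values were adjusted by Benjamini-Hochberg over all 13938 genes, with a threshold of 0.05. The few arrays limit the precision of every value. The fit was tested on simulated data with noise drawn independently for each gene. There 38.8% of 1.5-fold, 86.6% of 2-fold and 98.5% of 4-fold changes passed the adjusted threshold. The simulation does not cover differences between arrays that many genes share. Figures were drawn with matplotlib 3.10.9.

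The members and lists were chosen with earlier results of these data known. The genes named are the 10 members, up to 4 genes of each pathway list with the smallest p, Sost, Tnfsf11, Mef2b, Mbtps1 and the 5 genes most like Mef2a, Mef2c and Sik1 (clone names, gene models and small RNA genes skipped). Klf2, Nr4a1, Mmp13, Fgf23, Pdpn and Hdac11 were named after their values were seen. Alternatives were no filter, a filter at the 50th percentile, offsets of 1 and 64, quantile normalization, median centring, no trend, array weights, a replicate block, the mean of probe sets and leaving out each array. Leaving out controls 3 and 4 together, single probe sets and within-array ratios were added after seeing the data.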

Additional observations from a re-analysis of the deposited data

Results flagged for a closer look

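Among the 4 controls, control 2 stood far below the other controls in Hdac7, at an intensity of 118 against 137.9 to 139.7 (gap of 0.921 of the control range on the log2 scale). It was the 1 such array among 49 genes examined for an outlying control. Chance alone flags about 1 in 20 groups of this size.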

How the results depend on the processing

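No member passed the adjusted threshold under any of the 18 alternatives, and Mef2a, Mef2c and Hdac9 were below 0 in all of them. The sign was the same as with all arrays in 166 of 180 values of members. The other 14 were of Sik2 and Sik3. Sik2 had a log2 fold change of -0.00234 with an offset of 64, -0.0133 after quantile normalization, -0.0618 after median centring, -0.00946 with array weights and -0.12 with the replicate block (where control 4 has no partner and drops out), and ranged from -0.12 to 0.15 with each array left out. Sik3 had -0.00414 after quantile normalization and -0.0295 after median centring, and ranged from -0.027 to 0.10. Hdac10 had 0.00229 with array weights and 0.0254 without controls 3 and 4. Hdac1 had -0.0122 after quantile normalization, -0.0341 with median centring, -0.0104 with array weights, -0.070 with the replicate block, -0.0059 without controls 3 and 4, and from -0.070 to 0.10 with each array left out. Hdac6 ranged from -0.10 to 0.028.

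The count of members at an unadjusted p under 0.05 was 3. It was 5 with array weights and 5 without controls 3 and 4 (Hdac7 and Sik1 added, higher), and 2 to 4 with each array left out. Over all genes tested, those higher by this rule also rose, from 526 with all arrays to 1386 with array weights and 1135 without controls 3 and 4. Genes past the adjusted threshold numbered 0 with all arrays (904 at an unadjusted p under 0.05), 1 after median centring, 5 with array weights, 62 with the replicate block, 2 without controls 3 and 4, and 0 to 5 with each array left out. Genes at an unadjusted p under 0.05 numbered 1867 with array weights, 1655 with the replicate block, 1498 without controls 3 and 4, and 325 to 1803 with each array left out, which rests on control 4 at the upper end and knockout 1 at the lower. The share of them that was higher in knockout was 58.2% as deposited, 27.7% with median centring and 45.3% with quantile normalization. The labels do not say whether the replicate numbers pair the mice, and 3 correlations of same-numbered arrays are too few to decide it. Deviations of same-numbered arrays correlated at 0.07, 0.15 and -0.53, and the block left Mef2a at -0.45, Mef2c at -0.40 and Hdac9 at -0.28 (unadjusted limma p = 0.0609). The causes of these differences were not tested.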
